A study of Rattus norvegicus with 16 samples.

Results

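The Hox genes of the rat epididymal fat pad were described across 16 microarrays. A gene was a member when the RefSeq accession of its probe mapped to a rat symbol of the form Hoxa, Hoxb, Hoxc or Hoxd followed by digits. The 19 genes reported, read by 20 probes, are of 15162 genes named on the array. Other Hox genes are not reported here.

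Each array held total RNA from the epididymal white adipose tissue of 1 male rat, taken at the age of 30 days from freely fed animals. The dams of all 16 rats ate a high-fat diet through pregnancy and lactation, and the pups stayed on their mother's diet after weaning. In the HF group (8 rats) the dam had received only the vehicle, low-fat condensed milk. In the HFT group (8 rats) the dam had received 25 mg GSPE per kg body weight each day in that vehicle. No group on standard chow was analysed here, and the labels do not say which litter each pup came from; the tests take the 16 animals as independent.

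Hox genes encode homeodomain transcription factors that lie side by side in clusters, named a to d, on separate chromosomes. Genes at corresponding places in the clusters form a paralog group, and the order of the genes along a cluster follows the order in which they are used along the head-to-tail axis of the embryo, from anterior groups with low numbers to posterior groups with high numbers. Adult fat depots keep part of this positional pattern, and the posterior genes of the a and d clusters also pattern the limbs and the urogenital tract, from which the epididymis next to this fat pad derives.

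A level is the log2 processed signal of a probe minus the 75th percentile of its array, so 0 is a bright probe and each unit is a doubling. Levels were compared only between arrays for the same gene. The probe mark "well above background" set by the scanner software decided whether a level counts as measured, and levels without it have no order. The 75th percentile signal lay between 753 and 1366 on the 16 arrays, and 68.2% to 73.5% of probes were well above background. All 6 adipocyte markers with a named probe were well above background on every array, and Adipoq, the adipocyte hormone adiponectin, lay between 6.31 and 7.23. Because each sample is a whole piece of tissue, more cells of a type and more RNA per cell cannot be told apart in any value that follows.

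Of the 19 members, 9 were well above background on all 16 arrays: Hoxa2, Hoxa6, Hoxa7, Hoxb4, Hoxb7, Hoxc4, Hoxc5, Hoxd4 and Hoxd9. That is 47.4% of the members, against 69.9% of all named genes. Another 8 passed on 1 to 15 arrays, and Hoxb13 and Hoxc12 passed on none, where 15.6% of all named genes passed on none. Each of the 4 clusters had measured members: 3 of 4 in Hoxa, 2 of 6 in Hoxb, 2 of 3 in Hoxc and 2 of 6 in Hoxd were well above background on all 16 arrays.

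**Figure D1:**
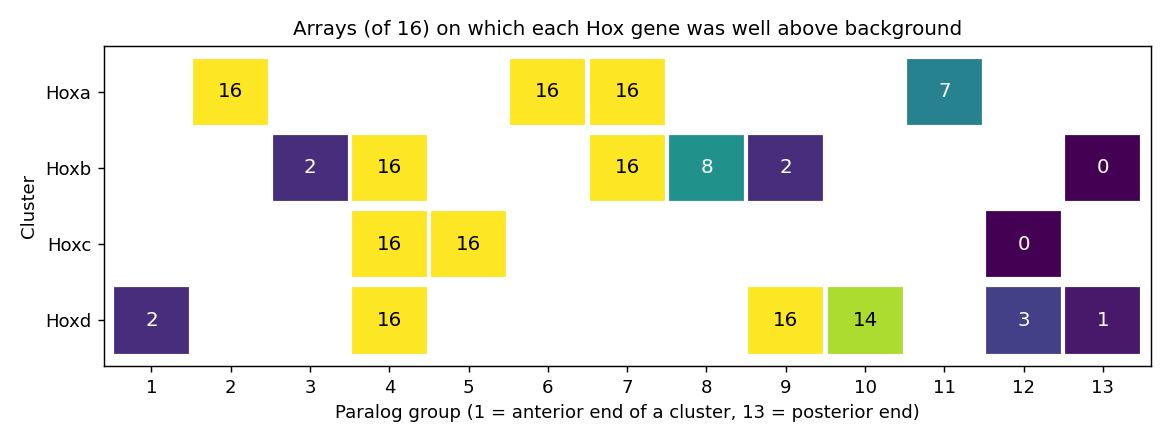
Each cell is a Hox gene placed by its cluster (rows) and paralog group (columns), and its number and colour give the arrays, of 16, on which the gene was well above background; empty places hold no gene reported here. The cells at 16 lie mostly in groups 4 to 8, and the columns for groups 12 and 13 hold only 0, 1 and 3.

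Along the clusters, the central paralog groups, 4 to 8, had 7 of 8 members on all 16 arrays, and the exception, Hoxb8, passed on 8. The anterior groups, 1 to 3, had 1 of 3 (Hoxa2), while Hoxb3 and Hoxd1 passed on 2 arrays each. The posterior groups, 9 to 13, had 1 of 8 (Hoxd9). Hoxd10 passed on 14 arrays, Hoxa11 on 7, Hoxd12 on 3, Hoxb9 on 2 and Hoxd13 on 1. The counts cover only the genes reported here, not whole clusters. They also describe single probes: the 2 probes of Hoxc5 disagreed (16 arrays and 0).

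The members measured on every array varied more between animals than the median gene tested. Their SDs over the 16 arrays stood between the 58.5th percentile of the 11591 genes tested (Hoxb4) and the 92.4th (Hoxb7). Hoxb4 had the smallest SD of the 9 and lay between -1.47 and -0.43 with a median of -1.17. Hoxc5 lay between -6.80 and -5.58 (median -6.05). Hoxa7 lay between 0.21 and 1.43 (median 0.78).

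Hoxa6 lay between -4.59 and -3.12 (median -4.01), and Hoxa2, a gene best known for patterning the hindbrain and the second pharyngeal arch, lay between -4.12 and -2.51 (median -3.43). Hoxd9 lay between -0.27 and 1.27 (median 0.35) and Hoxd4 between -3.75 and -2.09 (median -3.18). Hoxc4 lay between -2.88 and -1.07 (median -2.34), and Hoxb7 had the widest range of the 9, from -0.25 to 2.57 (median 0.11). The probes of Hoxa6, Hoxc4 and Hoxc5 are named for genes whose annotated spans overlap a neighbour (Hoxa3 for the first, Hoxc6 for the others), and Hoxd4 overlaps the microRNA gene Mir10b, so their signal may include a shared transcript.

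**Figure D2:**
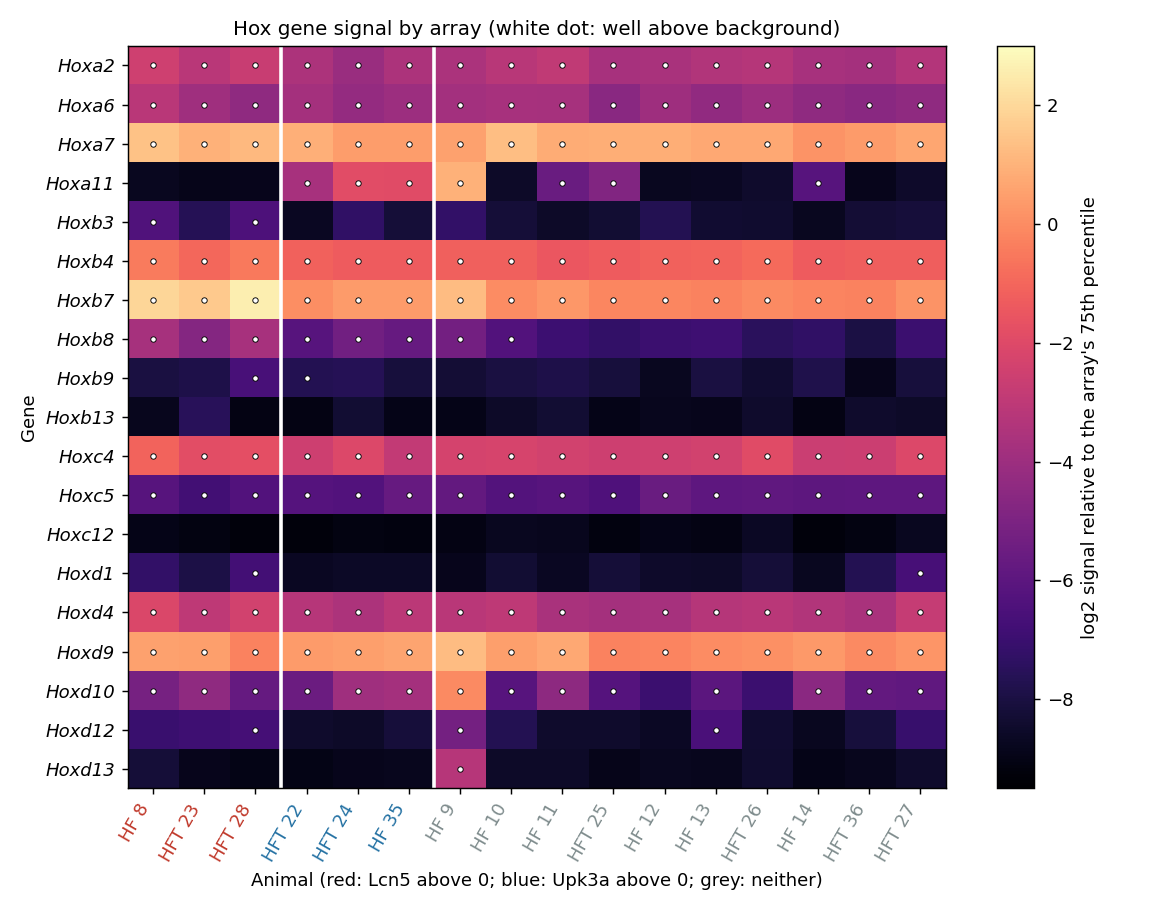
Rows are the 19 Hox genes and columns the 16 animals; colour is the log2 signal relative to the 75th percentile of the array, and a white dot marks a probe well above background. Red animal names have Lcn5 above 0, blue names Upk3a above 0, and the dark rows that turn bright in HF 9 are Hoxa11, Hoxd10, Hoxd12 and Hoxd13.

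Marker genes of tissues other than fat were bright on part of the arrays. Lcn5, a lipocalin of the epididymal epithelium, was above 0 on HF 8 (4.12), HFT 23 (3.42) and HFT 28 (4.12), and on the other arrays it was at most -2.71. Upk3a, a uroplakin of the bladder lining, was above 0 on HF 35 (4.69), HFT 24 (4.69) and HFT 22 (2.95), and on the other arrays it was at most -5.98. The remaining 10 arrays (6 HF and 4 HFT) had neither. These sets were read from the arrays themselves, so their values are given with no mean and no test.

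The other 11 named markers of the epididymal epithelium were summed without Lcn5, because it chose the arrays. Their summed signal was -2.59 to -1.76 (log2) on the Lcn5 arrays, -2.66 to -1.86 on the Upk3a arrays and -2.58 to -1.88 on the rest. Adam7 had the highest median of the 11 (-2.51) and was their only marker well above background on all 16 arrays. It therefore weighs heavily in the sum, which says little about the others. Defb1, a defensin, lay above the rest on the Lcn5 arrays (-4.61 to -2.80, against at most -7.99), where 8.59% of 12122 genes did. Defb1 was well above background on only 4 arrays, so it enters such a count only because of arrays on which it was high. Most of the rest had no measured level of it. Lcn8 and Gpx5 were each well above background on 2 arrays, HFT 23 and HFT 28, and on no array outside the Lcn5 set.

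Other markers of that list went elsewhere. Adam7 lay below the rest on every Lcn5 array (-3.62 to -2.98, against at least -2.88), and Crisp1 (-5.48) and Ros1 (-5.90) were well above background on HF 9 alone. Lcn9, Cst11, Cst8 and Rnase9 were well above background on no array. Of the 5 urothelium markers other than Upk3a, which chose the arrays, Upk1a, Upk1b, Upk2 and Krt5 lay above the rest on every Upk3a array. Over all genes, 2.48% of 12122 did so. Upk2 was well above background on only 3 arrays, so it enters such a count only through the arrays on which it was high. The summed signal of the 5 markers was 4.45 to 5.60 on the Upk3a arrays, against -0.41 to 2.96 on the rest. The adipocyte list summed to 7.54 to 7.87 on the Lcn5 arrays, 7.82 to 8.02 on the Upk3a arrays and 7.67 to 8.37 on the rest. The part of these tissues in the Hox values below was not tested.

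Hoxb7, Hoxb8 and Hoxc4 were higher on every Lcn5 array than on any of the 10 arrays with neither marker. Of 13 members well above background on at least 3 arrays, these 3 met that condition, against 8.59% of 12122 named genes. No member lay below the rest on every Lcn5 array, against 7.76% of genes. With 3 arrays against 10 read from the data, the counts are descriptions.

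Hoxb7 was 1.94 on HF 8, 1.59 on HFT 23 and 2.57 on HFT 28. On the 10 remaining arrays its lowest, median and highest levels were -0.25, -0.11 and 1.27, and on the Upk3a arrays it lay between 0.03 and 0.40. The Lcn5 arrays stood above both other sets, and the nearest array was HF 9; the other 9 reached only 0.28.

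Hoxb8, the neighbour of Hoxb7, was -3.70 on HF 8, -4.75 on HFT 23 and -3.64 on HFT 28. On the remaining arrays it lay between -7.98 and -5.25, again highest on HF 9, and only HF 9 and HF 10 (-6.32) were well above background there. On the Upk3a arrays it was -5.64 on HF 35, -5.30 on HFT 24 and -6.14 on HFT 22, below the Lcn5 arrays and well above background on all 3.

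Hoxc4 was -1.07 on HF 8, -1.81 on HFT 23 and -1.76 on HFT 28. The remaining arrays lay between -2.65 and -1.92 (median -2.39), so the gap between the sets was 0.10, against 0.31 for Hoxb7 and 0.50 for Hoxb8. The Upk3a arrays lay between -2.88 and -2.05, inside or under the range of the rest.

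The other reported paralogs of group 4 overlapped between the sets. Hoxb4 was -0.43 on HF 8 and -0.50 on HFT 28, but -1.0 on HFT 23, where 1 of the 10 remaining arrays was higher. Hoxd4 was -2.09 on HF 8, -2.38 on HFT 28 and -3.0 on HFT 23, where 2 of the remaining arrays were higher. All 3 group-4 paralogs reported here were thus at their highest on HF 8 and next highest on HFT 28.

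**Figure D3:**
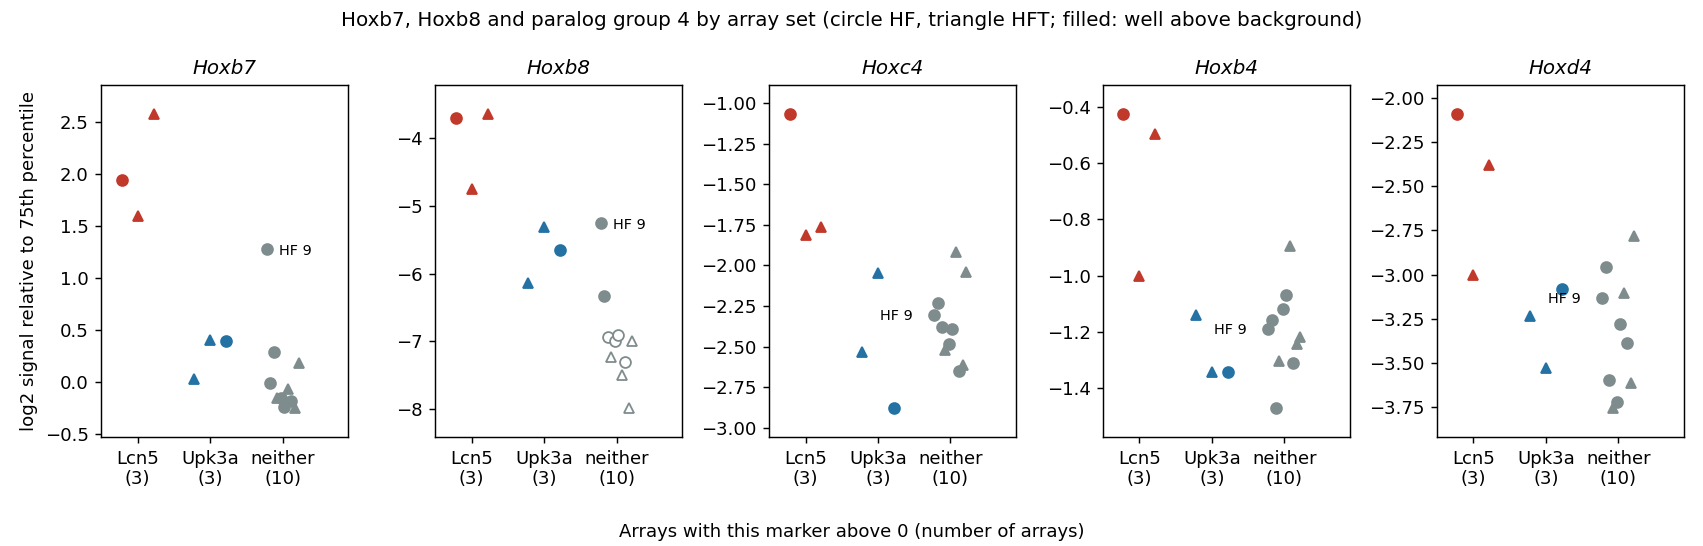
Each panel plots the log2 signal of a gene relative to the 75th percentile of the array, with every animal as a point placed by marker set; circles are HF, triangles HFT, and filled points are well above background. The red points lie above all grey points for Hoxb7, Hoxb8 and Hoxc4, and HFT 23 falls among the grey points for Hoxb4 and Hoxd4.

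HF 8 gave the highest level of 6 of the 9 members measured on all arrays (Hoxa2, Hoxa6, Hoxa7, Hoxb4, Hoxc4 and Hoxd4), a pattern picked out after the values were seen. Over the 10598 genes measured on all arrays, HF 8 was the highest for 10.3%. Hoxb3 was well above background only on HF 8 (-6.36) and HFT 28 (-6.47), both Lcn5 arrays.

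Hoxa11 was measured on other arrays. This gene, known for its part in the forearm, the kidney and the reproductive ducts, was not well above background on any Lcn5 array. On the Upk3a arrays it was -1.89 on HF 35, -1.84 on HFT 24 and -3.68 on HFT 22. Of the remaining arrays it was well above background on HF 9 (0.95), HFT 25 (-4.82), HF 11 (-5.57) and HF 14 (-6.18), and not on the other 6.

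No member lay above the rest on every Upk3a array (2.48% of genes) and none below it (0.569%), because HF 9 exceeded the Upk3a arrays for Hoxa11 and Hoxb8. With HF 9 left out of the rest, an alternative added after the data were seen, 2 of the 13 members, Hoxa11 and Hoxb8, lay above the rest on every Upk3a array (4.31% of genes) and 0 below (1.85%). Without HF 9, the same 3 members stayed above on the Lcn5 arrays (11.6% of genes) and 0 lay below (13%). The Hoxa11 gap to the highest remaining array, HFT 25, was then 1.13, and that of Hoxb8 0.18.

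HF 9 stood apart in the posterior members. It held levels of Hoxa11, Hoxd10, Hoxd12 and Hoxd13 more than 1 log2 unit above every other array. These were 4 of the 17 members well above background on at least 1 array, against 1.87% of 12798 genes, by a measure chosen after the values were seen. Hoxd13 entered that count only through HF 9 itself; of the 16 members well above background on another array, 3 stood apart in this way, against 1.62% of 12733 genes. To show what these 4 genes have at their starts, the 250 bases upstream of each are printed from the RefSeq promoter table (build GRCr8), 5' to 3' on the strand of the gene. Capitals mark CCAAT, the CCAAT box, and TTTAT, a core bound by posterior Hox proteins, on either strand.

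Hoxa11, chr4:82676802-82677051, minus strand: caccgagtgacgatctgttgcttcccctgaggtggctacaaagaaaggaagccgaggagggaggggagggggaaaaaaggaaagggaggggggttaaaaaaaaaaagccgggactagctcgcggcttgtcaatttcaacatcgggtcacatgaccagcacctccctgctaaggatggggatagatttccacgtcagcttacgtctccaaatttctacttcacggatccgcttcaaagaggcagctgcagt
Hoxd10, chr3:80001697-80001946, plus strand: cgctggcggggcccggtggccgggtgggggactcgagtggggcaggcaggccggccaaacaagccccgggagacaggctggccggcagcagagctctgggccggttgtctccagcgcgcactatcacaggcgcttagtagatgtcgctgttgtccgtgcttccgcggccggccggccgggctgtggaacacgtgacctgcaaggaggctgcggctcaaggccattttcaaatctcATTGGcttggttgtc
Hoxd12, chr3:79984856-79985105, plus strand: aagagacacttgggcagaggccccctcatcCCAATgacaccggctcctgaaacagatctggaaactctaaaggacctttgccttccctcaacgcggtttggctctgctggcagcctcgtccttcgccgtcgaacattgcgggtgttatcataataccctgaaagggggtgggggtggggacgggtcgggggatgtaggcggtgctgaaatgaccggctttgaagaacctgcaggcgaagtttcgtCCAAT
Hoxd13, chr3:79977827-79978076, plus strand: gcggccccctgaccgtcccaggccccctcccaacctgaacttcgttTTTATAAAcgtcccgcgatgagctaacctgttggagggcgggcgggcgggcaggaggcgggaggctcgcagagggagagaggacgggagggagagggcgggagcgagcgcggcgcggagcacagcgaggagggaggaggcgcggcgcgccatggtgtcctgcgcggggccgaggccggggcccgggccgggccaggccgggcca

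The 4 sequences differed. Hoxd12 held 2 matches to CCAAT and Hoxd10 held 1, while Hoxa11 and Hoxd13 held 0, where 34% of 33469 promoters of the same length had at least 1. TTTAT had 2 matches in Hoxd13, 1 on each strand and overlapping, and 0 in the others (39.3% of promoters), and TGATTNAT, a Pbx and Hox composite site, had 0 in all 4 (2.82% of promoters). The G and C content was 52.4% in Hoxa11, 56.8% in Hoxd12, 67.2% in Hoxd10 and 74.8% in Hoxd13, against a median of 51.2%, and CG pairs numbered 11, 14, 21 and 30, against a median of 5. Of the members, 11 had an entry in that table; 8 of them held CCAAT, 3 TTTAT and 1 TGATTNAT.

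Hoxd13, the last gene of its cluster and a regulator of digits and external genitalia, was -3.24 on HF 9, the only array on which it was well above background. Hoxd10 was -0.05 on HF 9 and next highest on HF 35 (-3.74) and HFT 24 (-3.93); the lowest array was HFT 26 (-7.00), where it was not well above background. Hoxd12 was -5.25 on HF 9, -6.55 on HF 13 and -6.70 on HFT 28, and not well above background elsewhere. On HF 9 these genes stood 3.69 (Hoxd10) and 1.30 (Hoxd12) above the next array, and Hoxa11 stood 2.80 above it.

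The posterior Hoxd members lie at the same end of their cluster, with genes between them that are not reported here. From Hoxd13 the start of Hoxd12 is 7029 bases away, Hoxd10 follows after 16841 more and Hoxd9 after 6059 more. Hoxd9 was also highest on HF 9 (1.27, against 0.71 on HF 11), with a smaller gap of 0.56. Hoxd4, whose start is 13880 bases beyond that of Hoxd9, was -3.13 on HF 9, inside the range of the other arrays, and Hoxd1 was not well above background there.

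**Figure D4:**
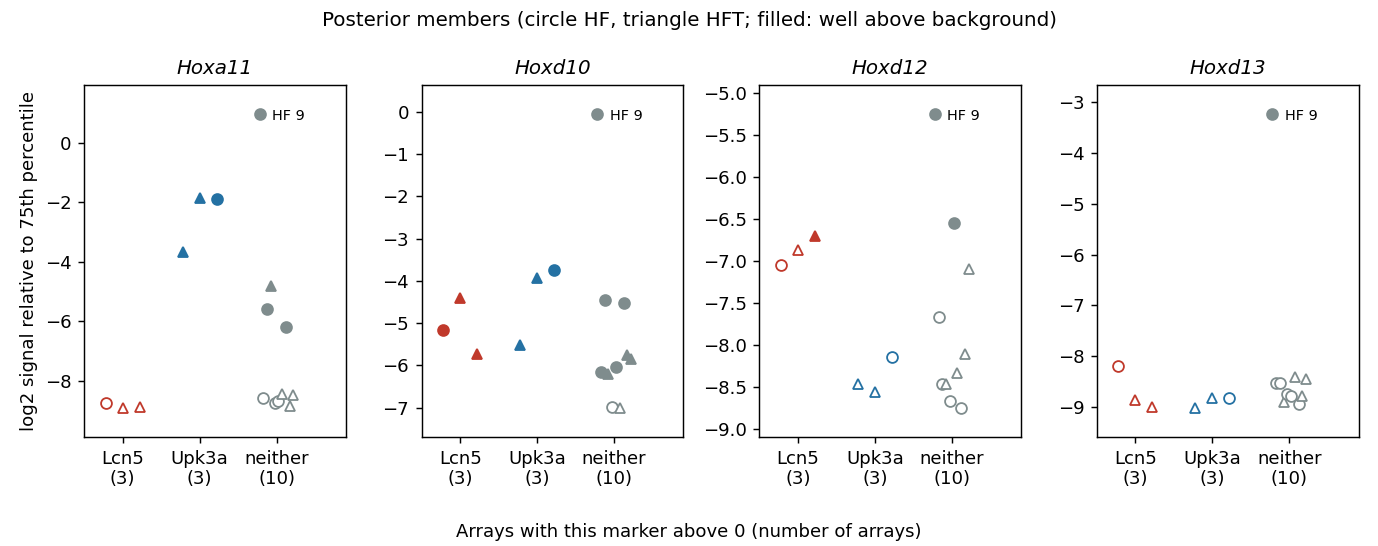
Each panel plots the log2 signal relative to the 75th percentile of the array for a posterior gene, with every animal as a point placed by marker set (circles HF, triangles HFT, filled points well above background). HF 9 is the top point in all 4 panels, and the blue points of Hoxa11 lie above all grey points except HF 9.

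HF 9 also carried the highest level of all 8 smooth muscle markers, among them Actg2, the enteric actin (7.89), and Myh11, smooth muscle myosin (6.22). HF 9 was the highest array for 10.2% of the 10598 genes measured on all arrays. The summed smooth muscle signal was 8.73 on HF 9, 4.92 to 6.16 on the Upk3a arrays, 3.75 to 4.41 on the Lcn5 arrays and 3.50 to 4.52 on the other 9. The 4 arrays with the highest summed smooth muscle signal, HF 9, HF 35, HFT 24 and HFT 22, were also the 4 with the highest Hoxa11. This match was picked out after the values were seen, and the share of all genes with the same 4 arrays on top is not given. HF 11 and HF 8 came next in smooth muscle, and Hoxa11 was -5.57 on the former and not well above background on the latter. Below the top 4 the match did not hold. HFT 25 and HF 14 had the lowest smooth muscle sums of the 16 arrays (3.50 and 3.59). Hoxa11 was nevertheless well above background on both (-4.82 and -6.18). Lcn5 and Upk3a were -4.98 and -6.11 on HF 9, and its adipocyte sum was 7.67. Its summed signal for epithelium in general was 2.58, above the other 9 arrays with neither marker (-0.43 to 1.54) and below the Lcn5 arrays (3.56 to 4.66) and the Upk3a arrays (4.10 to 5.35). Epcam, an adhesion molecule of epithelia, was -1.02 on HF 9, where the median of the arrays with neither marker was -8.50. Epcam was well above background on only 8 arrays, and levels without that mark have no order. The part of smooth muscle or epithelium in these Hox levels was not tested.

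The design compared HFT with HF, the effect of giving GSPE to dams on a high-fat diet. By limma over all 21808 probes tested, 0 passed an adjusted p of 0.05 (Benjamini-Hochberg; smallest adjusted p = 0.999994), which is 0% of probes, and 515 (2.36%) had an unadjusted p under 0.05. Among the 12 members tested, 0 passed the adjusted threshold and 0 the unadjusted one. Lower values in HFT were found for 9 of the 12 and higher values for 3, where 54% of 11591 genes were lower. The median difference was -0.09 over the members and -0.01 over all genes tested, and without HF 8 the members' median was 0.02.

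Hoxa6 had the smallest unadjusted p. In HF it lay between -4.40 and -3.12 (median -3.88) and in HFT between -4.59 and -3.75 (median -4.32), a difference of -0.36 (SE 0.17, 95% interval -0.73 to 0.01, adjusted p = 0.999994 by limma). The ranges overlapped, and 7 of 8 HFT animals were below the HF mean.

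Hoxc5 lay between -6.24 and -5.58 in HF (median -5.94) and between -6.80 and -5.89 in HFT (median -6.24), a difference of -0.28 (SE 0.14). Hoxd9 lay between -0.18 and 1.27 in HF (median 0.50) and between -0.27 and 0.50 in HFT (median 0.16), a difference of -0.34 (SE 0.18). Both overlapped between the groups, with 6 of 8 HFT animals below the HF mean in each. Without HF 9 the Hoxd9 difference was -0.22 (SE 0.16). The second probe of Hoxc5, not well above background on any array, gave a difference of 0.01.

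HF 9 weighed most on the posterior members. Hoxd10 lay between -6.99 and -0.05 in HF (median -4.85) and between -7.00 and -3.93 in HFT (median -5.74), a difference of -0.91 (SE 0.78), and -0.25 (SE 0.51) without HF 9. Hoxa11 differed by -0.81 (SE 1.53, 95% interval -4.05 to 2.44), and by 0.18 (SE 1.31) without HF 9. Hoxc4 was higher in HFT by 0.14 (SE 0.22), with a median of -2.39 in HF and -2.04 in HFT, and Hoxa2 differed by -0.13 (SE 0.20), with medians of -3.44 and -3.42. The intervals of all 12 members included 0.

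**Figure D5:**
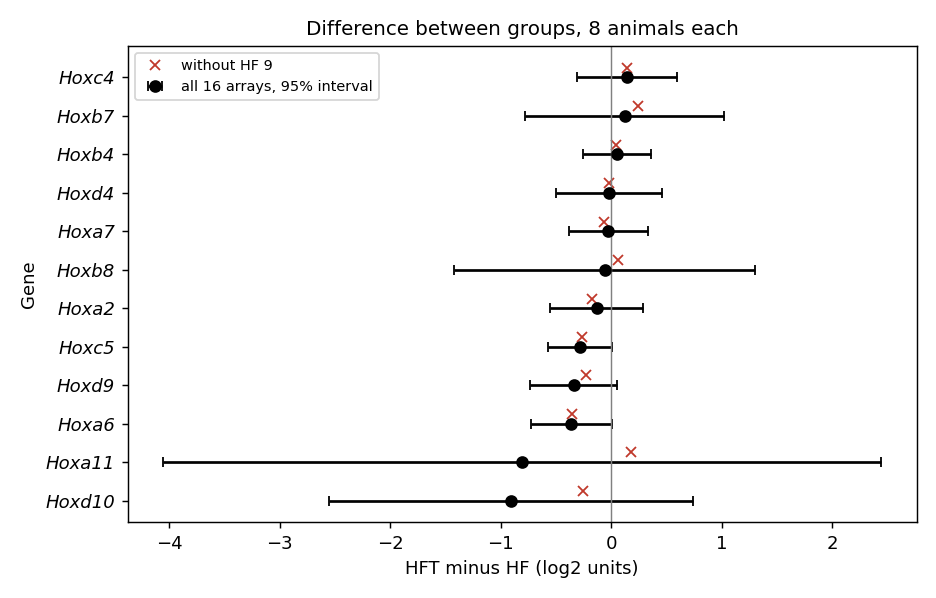
The horizontal axis is the HFT minus HF difference in log2 units for the 12 Hox genes tested, with 8 animals in each group; dots and bars are the limma estimate and its 95% interval, and crosses the estimate without HF 9. All intervals cross 0, and the crosses of Hoxa11 and Hoxd10 lie well to the right of their dots.

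The median SD over the 16 arrays was 0.43 for the 12 members tested and 0.25 for all genes tested. Hoxa11 (3.20), Hoxd10 (1.67), Hoxb8 (1.32) and Hoxb7 (0.88) had the largest SDs of the 12. Each of the 4 slides held 2 animals of each group, HF always at positions 1 and 2 and HFT at 3 and 4, so group and slide position cannot be told apart. Within slides, the Hoxa6 difference was -0.37, -0.72, -0.06 and -0.28.

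Genes that work with Hox proteins were measured on nearly all arrays. Of 9 cofactors listed, the Pbx, Meis and Pknox proteins that bind DNA beside Hox proteins, 7 were named and 6 were well above background on all 16 arrays. HFT was lower for 5 and higher for 1, and 0 passed the adjusted limma threshold. Meis1 was at its highest on HF 9 (2.18, against a median of 1.48 over all arrays). Of 20 Polycomb and trithorax regulators, which keep Hox genes silent or active, 14 were named and all 14 were well above background on all arrays. HFT was higher for 6 and lower for 8, with 0 past the adjusted threshold. Cbx7, a Polycomb subunit, lay above the rest on the Lcn5 arrays (-0.72 to -0.05, against at most -0.98). It was the only 1 of the 14 to do so, where 8.59% of 12122 genes did.

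The caudal and even-skipped genes, relatives that flank or activate Hox clusters, had 4 of 5 named and 0 on all arrays, with Cdx4 and Evx2 well above background on none. Of 9 patterning genes of fat depots, 6 were named and 2 were measured on all arrays, Nr2f1 and Nr2f2. Both were highest on HF 9 (-1.16 and 1.86). Nr2f1 was lower in HFT (difference -0.35, SE 0.15); its limma p was under 0.05 unadjusted and did not pass adjustment. Irx5 lay above the rest on the Lcn5 arrays (-3.72 to -2.50, against at most -4.96). It was the only 1 of the 6 named to do so, where 8.59% of 12122 genes did.

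All 7 genes listed for the Wolffian and Mullerian ducts were named, and 3 of them, Pax8, Lhx1 and Sall1, lay above the rest on every Lcn5 array, against 8.59% of 12122 genes. Lhx1 was well above background on only 4 arrays and Sall1 on 3, the Lcn5 arrays among them, so both were described only because of the arrays on which they were high. Pax8 lay between -0.81 and 0.27 there and between -7.42 and -3.09 on the rest. Gata3 was -1.94 on HF 9 and between -3.31 and -1.86 on the Upk3a arrays, and its median on the rest was -6.82. Gata3 was well above background on only 8 arrays, and its levels without that mark have no order. In HFT against HF, 5 of the 7 were tested and 0 passed the adjusted threshold.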

How the data were processed

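Agilent Feature Extraction 10.7.3.1, per the submitters' processing notes, gave the deposited spot intensities, with marks for spots well above background, per the file headers. The authors also deposited a log2 table, used only as an alternative; no normalization is given for it in the sources used here. The RNA was labelled with Cy3, per the labels.

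From the processed intensity, log2 values minus each array's 75th percentile were computed, replicate spots averaged, and a probe called well above background where at least 50% of its spots were marked. The brightest probe stood for a gene. Names came from RefSeq accessions (GRCr8). Probes well above background on 4 of 8 arrays of a group (21808) were tested by limma 3.58.1 (R 4.3.3) without covariates, with Benjamini-Hochberg adjustment at 0.05; the script was tested on simulated data. Named for the group comparison were the 6 members of smallest p, and Hoxa11 after its values were seen. The number of arrays limits the precision. Alternatives were 2 other scalings, the deposited table, 2 other filters, the slide as a block, and arrays left out. 1 further Hox gene is not reported here. The members and lists were chosen with earlier results of these data known.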

Additional observations from a re-analysis of the deposited data

Results flagged for a closer look

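Within the 8 HF animals, a single array lay far from the nearest of the others, relative to the range of the group, for 5 members. At most 38 groups were looked at. The rule flags about 1 in 20 groups by chance if values are normally spread, which was not checked here. All 5 flags fell on HF 8 and HF 9, which were the highest arrays for 10.3% and 10.2% of the 10598 genes measured on all arrays. The share of all genes flagged by this rule is not given here, so the flags are descriptions. HF 8 was high for the 3 reported paralogs of group 4. Hoxb4 was -0.43 (other HF arrays at most -1.07), Hoxc4 was -1.07 (others at most -2.23) and Hoxd4 was -2.09 (others at most -2.96). HF 9 was high for Hoxd10, at -0.053 (others at most -3.74), and for Hoxd13, at -3.24 (others at most -8.19 and not well above background). HF 8 has Lcn5 above 0, and HF 9 has the highest smooth muscle markers and epithelial signal above the other arrays with neither marker; the part of either in these values was not tested.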

How the results depend on the processing

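Of 283 values under alternatives, 276 kept their direction and their side of the threshold or stayed within the spread, 6 moved and 1 reversed. Part of the 276 could not change, because another filter or the slide as a block leaves the difference of a single gene as it was. For the members' median difference the spread was 0.53, so its change of sign without HF 8 was counted as unchanged. The tally is therefore no measure of robustness. Leaving out the 3 Lcn5 arrays gave 1 probe, not of a Hox gene, past the adjusted limma p, against 0 with all arrays. Normexp with quantile normalization, quantile normalization and the deposited table each gave 1 member, Hoxc5, below the rest on every Lcn5 array, against 0. Leaving HF 9, or HF 9 and HFT 27, out of the rest gave 2 members above the rest on every Upk3a array, against 0; this was chosen after seeing the data. Leaving out each animal in turn, the Hoxa11 difference lay between -1.50 and 0.18, above 0 only without HF 9, and the members' median difference between -0.26 and 0.02, above 0 only without HF 8. Hox genes measured on all arrays numbered 9, or 10 by the negative control spots. No paired analysis was possible because the groups share no replicate numbers in the labels. Signals near background limit Hoxa11, Hoxb8, Hoxd10, Hoxd12 and Hoxd13, whose unmarked levels have no order.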

Other observations

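HFT 28 was the only array other than HF 9 with a member more than 1 log2 unit above every other array: Hoxb9 was -6.61 there and well above background on only 1 other array, HFT 22 (-7.67). That is 1 of 17 members, against 0.297% of 12798 genes on HFT 28. The next highest Hoxb9 level, on HFT 24 (-7.62), was not well above background, so the size of that gap was not measured. Hoxd1 was well above background on HFT 27 (-6.67) and HFT 28 (-6.73). Shox2, a patterning gene of fat depots, was well above background on 15 arrays and lay between -8.87 and -4.10 on the Lcn5 arrays and between -4.29 and -2.91 on the arrays with neither marker. Emx2, a gene of the urogenital ducts, lay between -0.23 and 0.87 on the Lcn5 arrays and was -0.04 on HF 9, with a median of -2.47 on the arrays with neither marker.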
